A study of Mus musculus with 17 samples.

Results

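Chromatin accessibility at 10 tubular injury and repair genes was examined in kidneys of 17 mice by ATAC-seq, in which a transposase cuts accessible DNA and the cut ends are sequenced. The genes were Havcr1, Lcn2, Spp1, Vcam1, Krt8, Krt18, Clu, Sox9, Sox4 and Cdkn1a, 10 of the 55413 genes in the GENCODE annotation of the mouse build mm10. They were listed by name and not by a threshold on a measured value. The Ctrl group held wild-type (WT) C57BL/6 mice (n = 5). The Case group held db/db mice (n = 6), which lack a working leptin receptor, become obese and diabetic, and carry the mutation on the BKS background. The Dapa group held db/db mice (n = 6) that received 1 mg/kg/day of dapagliflozin, which blocks glucose reabsorption through SGLT2. Male mice entered at 8 weeks of age and were followed for 6 weeks, and the Ctrl and Case groups received saline in place of the drug. Genotype, diabetes and background strain cannot be told apart between Ctrl and either db/db group, and each library was made from 20000 cells of kidney, with no sort by cell type stated.

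A tubule cell that is injured loses its specialised functions and takes up a repair programme. Kidney injury molecule 1 (Havcr1) and neutrophil gelatinase-associated lipocalin (Lcn2) are secreted or shed into urine and serve as injury markers. Osteopontin (Spp1) is a secreted matrix protein, Vcam1 is an adhesion molecule that marks tubule cells which fail to repair, and clusterin (Clu) is a secreted chaperone. Keratins 8 and 18 (Krt8, Krt18) pair into the filaments of simple epithelia. Sox9 and Sox4 are transcription factors, the former known for its induction in surviving proximal tubule cells, and Cdkn1a encodes p21, which arrests the cell cycle.

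The data were lists of summits, the base of highest signal in each accessible peak, 1 list per mouse. The lists held 29702 to 56659 summits, so each was cut to its top 29702 by score, as many as the shortest list held. A gene had a summit when at least 1 lay between 10 kb upstream of its start and its end. The rank percentile of a summit ran from 100 for the highest-scoring in its list downward, and a gene or site without a summit was set to 0. Because lists are made from whole tissue, a wider opening in each cell and more cells with the open site cannot be told apart.

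Of 14 kidney epithelial markers, 9 to 12 in Ctrl, 5 to 11 in Case and 9 to 11 in Dapa libraries had a summit no more than 1 kb from one of their starts, though Slc12a1 and Aqp2 had none in any library. Endothelial markers reached 0 to 1 of 5, podocyte markers 0 to 2 of 4, and fibroblast and mural markers 0 to 2 of 6. Leukocyte markers reached 0 of 10 in each Ctrl library, 0 to 4 in Case and 0 to 2 in Dapa, and Ptprc, Adgre1 and Itgam had none anywhere. The library Case 3 stood apart, with the fewest epithelial markers (5) and the most leukocyte markers (4, namely Cd68, Csf1r, Cd74 and Spi1). The Case minus Ctrl differences of Krt8, Clu, Sox4 and Cdkn1a over the gene window are therefore given with and without it.

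Because presence and rank depend on where a summit lies, the sequence around the sites that carry the results is shown first, read from the RefSeq copy of build GRCm38, which is mm10. Each is written 5′ to 3′ on the strand of its gene. Capitals mark matches, on either strand, to the AP-1 letters TGANTCA (bound by Fos and Jun factors) or the CCAAT box, and a sequence without capitals held neither these nor the TEAD (ACATTCC), STAT (TTCNNNGAA) or HNF4 (CAAAGTCCA) letters. The Krt8, Krt18 and Clu sites were chosen among the 4 with a summit in all 17 libraries. Left out was the Lcn2 site 7922 bp upstream, which lay 266 bp from a start of Ptges2. The Sox4 site was chosen for its spread between groups. The Cdkn1a and Spp1 sites were chosen for an AP-1 match, 53 bp and 15 bp from the median summit.
Krt8 intron site, chr15:102003017-102003257, minus strand: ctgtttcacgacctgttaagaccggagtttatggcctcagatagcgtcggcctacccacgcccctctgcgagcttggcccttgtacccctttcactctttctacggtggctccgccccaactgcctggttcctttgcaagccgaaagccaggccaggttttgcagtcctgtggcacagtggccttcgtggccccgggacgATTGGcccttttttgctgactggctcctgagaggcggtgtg
Krt18 upstream site, chr15:102018048-102018248, plus strand: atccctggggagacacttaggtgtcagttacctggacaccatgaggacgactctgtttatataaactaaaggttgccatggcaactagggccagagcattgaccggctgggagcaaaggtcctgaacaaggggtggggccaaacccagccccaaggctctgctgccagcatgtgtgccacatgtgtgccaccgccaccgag
Clu upstream of its start, chr14:65968333-65968482, plus strand: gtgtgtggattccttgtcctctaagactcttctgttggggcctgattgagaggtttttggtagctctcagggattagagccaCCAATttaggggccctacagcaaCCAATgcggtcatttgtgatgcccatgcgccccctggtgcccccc
Clu 5′ untranslated region, chr14:65968549-65968577, plus strand: ttctctgggcgTGAGTCAcgcaggtttgc
Sox4 upstream site, chr13:28957885-28958085, minus strand: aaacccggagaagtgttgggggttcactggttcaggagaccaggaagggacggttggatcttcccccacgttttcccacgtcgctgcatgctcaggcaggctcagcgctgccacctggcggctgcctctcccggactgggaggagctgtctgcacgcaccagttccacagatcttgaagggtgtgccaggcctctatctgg
Cdkn1a intron site, chr17:29095447-29095597, plus strand: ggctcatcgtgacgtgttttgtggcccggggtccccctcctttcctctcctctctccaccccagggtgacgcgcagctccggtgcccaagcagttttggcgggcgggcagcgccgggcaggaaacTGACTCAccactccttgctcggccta
Spp1 intron site, chr5:104436789-104436899, plus strand: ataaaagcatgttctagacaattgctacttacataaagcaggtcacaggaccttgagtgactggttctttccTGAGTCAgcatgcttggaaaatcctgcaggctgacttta

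The same letters were sought in the 300 bp around all 18 member regions, where a region is a stretch of merged summits, each extended by 250 bp to both sides, found in at least 2 libraries. AP-1 letters lay in 4 of the 18 regions (22.2%), against 9.25% of all 52423 regions in the genome. CCAAT lay in 7 (38.9%, against 33.2%), the TEAD letters in 2 (11.1%, against 4.54%), the STAT letters in 2 (11.1%, against 7.96%) and the HNF4 letters in 0 (against 2.16%). The AP-1 matches fell in Clu, Cdkn1a and 2 regions of Spp1. At Clu the match was centred 80 bp downstream of the start, 6 bp from the median summit, and at the Spp1 intron site it was 15 bp from the median summit. The promoter region of Sox4 held 4 CCAAT matches, between 155 bp upstream and 8 bp downstream of the start. These matches describe letters in the reference and were not tested against binding.

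The members differed widely in how often their windows held a summit. Lcn2, Krt8 and Clu had a summit in all 17 mice, Sox4 in 16, Cdkn1a in 14, Spp1 in 10, Krt18 in 4, Havcr1 in 3, Sox9 in 2 and Vcam1 in 0. Beside these, 41.4% of protein-coding genes had a summit in all 17 mice and 14.7% in none. Protein-coding genes had longer windows (median 27425 bp, against 16859 bp for the members), so these shares are not matched for length. The median percentile over the 17 mice was 81.4 for Lcn2, 79.9 for Clu and 78.5 for Krt8, then 56.2 for Sox4, 50.2 for Cdkn1a, 16 for Spp1 and 0 for the other 4 genes. Each of the first 3 genes varied between mice (49 to 94.9 for Lcn2, 53.9 to 94.6 for Clu, 54.8 to 93.9 for Krt8) by far more than their medians differed, and their order was not tested. Windows ran from 13620 bp (Lcn2) to 54499 bp (Havcr1), so this order is not corrected for length. In every mouse but Case 3, the Lcn2 value came from a site 266 bp from a start of Ptges2. At the start of Lcn2 itself a summit lay in 2 mice only. The Krt18 count was set by the edge of its window, as its only site, 10032 bp upstream, had a summit in all 17 mice.

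The number of members with a summit was 6 ± 1 in Ctrl (SD, n = 5, range 5 to 7), 5.5 ± 1.05 in Case (n = 6, range 4 to 7) and 6.17 ± 1.17 in Dapa (n = 6, range 5 to 8). The 3 ranges overlapped. The lowest count, 4, was that of Case 3, and without it the Case mean was 5.8. The order of the groups depended on the length of the lists: with 14851 summits each, the means were 3.8 in Ctrl, 4.83 in Case and 4.5 in Dapa.

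**Figure D1:**
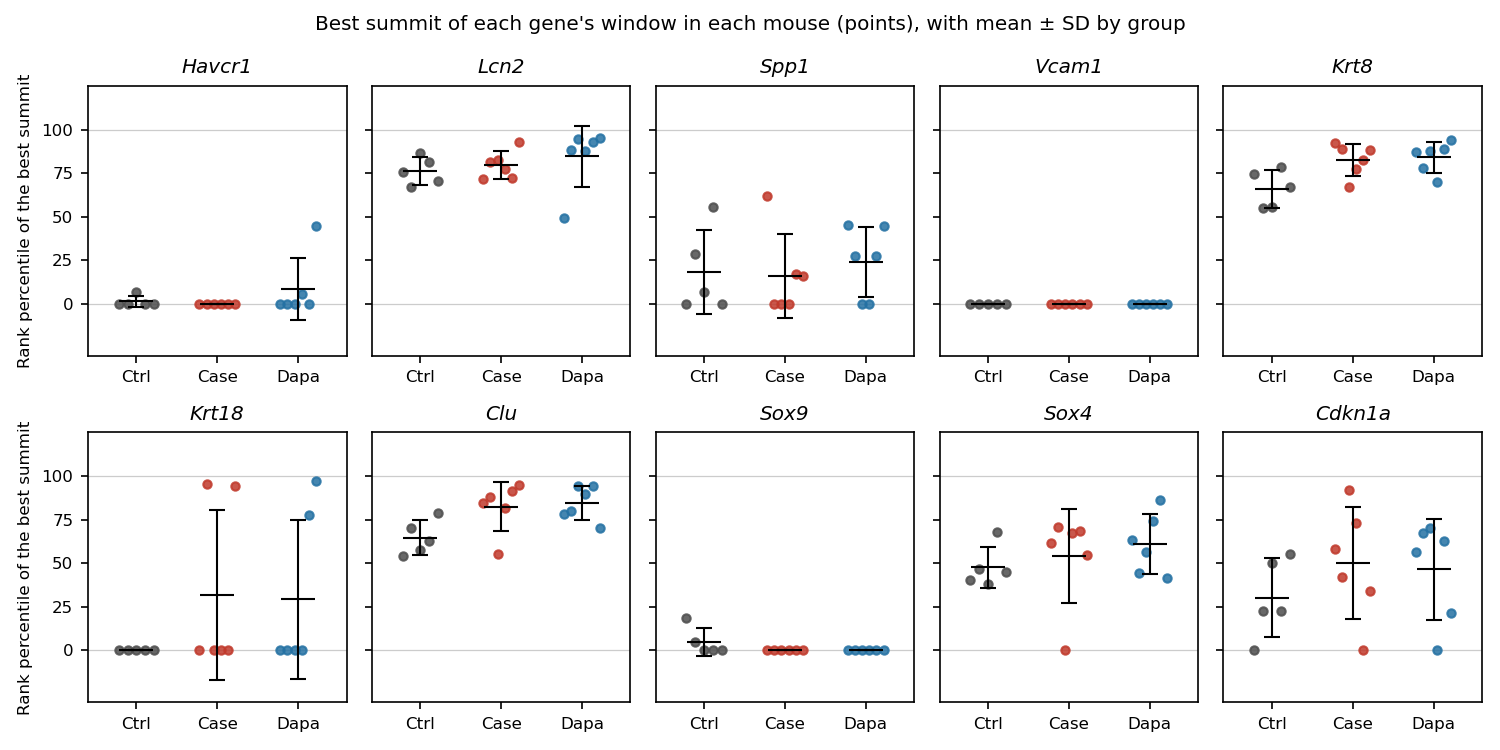
Rank percentile of the highest-ranking summit in each gene's window (0 to 100; 0 where there was none) in each mouse, by group, with the mean and SD. Krt8 and Clu lie at 53.9 to 78.9 in the Ctrl mice and mostly above that range in Case and Dapa mice, whereas Havcr1, Sox9 and Vcam1 lie at 0 in nearly all mice.

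Across all genes, presence was compared by Fisher's exact test and percentile by an exact permutation test of the difference in means, both 2-sided with Benjamini-Hochberg adjustment over the genes tested. By presence, 0 members had an unadjusted p under 0.05 in any comparison. The background was 7.9% of genes tested for Case against Ctrl, 1.22% for Dapa against Case, 5.9% for Dapa against Ctrl and 7.14% for all 12 db/db mice against Ctrl. The number of mice allowed a test for 1 member in each of the first 3 comparisons and for 4 in the last.

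By percentile, Krt8 and Clu had unadjusted p under 0.05 in each comparison with Ctrl, both with the higher mean in db/db mice, and 0 members had it in Dapa against Case. These were 2 of 8 members tested for Case and 2 of 9 for Dapa and for db/db against Ctrl, the others having too few summits. No member passed the adjusted threshold of 0.05. The shares of all genes at this unadjusted level were 4.08% higher and 7.88% lower in Case than in Ctrl, 4.8% and 7.63% in Dapa than in Ctrl, and 4.17% and 8.07% in db/db than in Ctrl. For Dapa against Case they were 2% and 1.48%. Adjusted calls made up 0% of genes in all 4 comparisons, by presence as well. The comparisons with Ctrl share the same 5 Ctrl mice, so Krt8 and Clu standing out in each is not repeated evidence. The median difference of the 10 members was 4.9 points for Case minus Ctrl, 11 for Dapa minus Ctrl and 1.62 for Dapa minus Case. Over all genes tested it was -0.734, -0.517 and 0.0177. The sets are unlike, since the members' medians include members that could not be tested, and the genes tested are of every annotated type. With each mouse left out, the members' medians ran from 3.02 to 9.2, from 8.5 to 14.9 and from 0 to 5.77. These medians depended on the lists: in complete lists they were -0.325, 5.59 and 3.73, beside -3.78, -1.92 and 1.5 over all genes tested. They include Krt18, whose presence was set by the edge of its window. The other 9 members had medians of 3.48, 8.51 and 1.84, a count added after the data had been seen. The medians against Ctrl, 3.48 and 8.51, are the differences of Lcn2 itself. In every mouse but Case 3, the best summit of the Lcn2 window lay closer to a start of Ptges2. Leukocyte markers differed between the same groups, at 0 of 10 in Ctrl and 0 to 4 of 10 in db/db libraries, and their part in these differences was not tested.

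**Figure D2:**
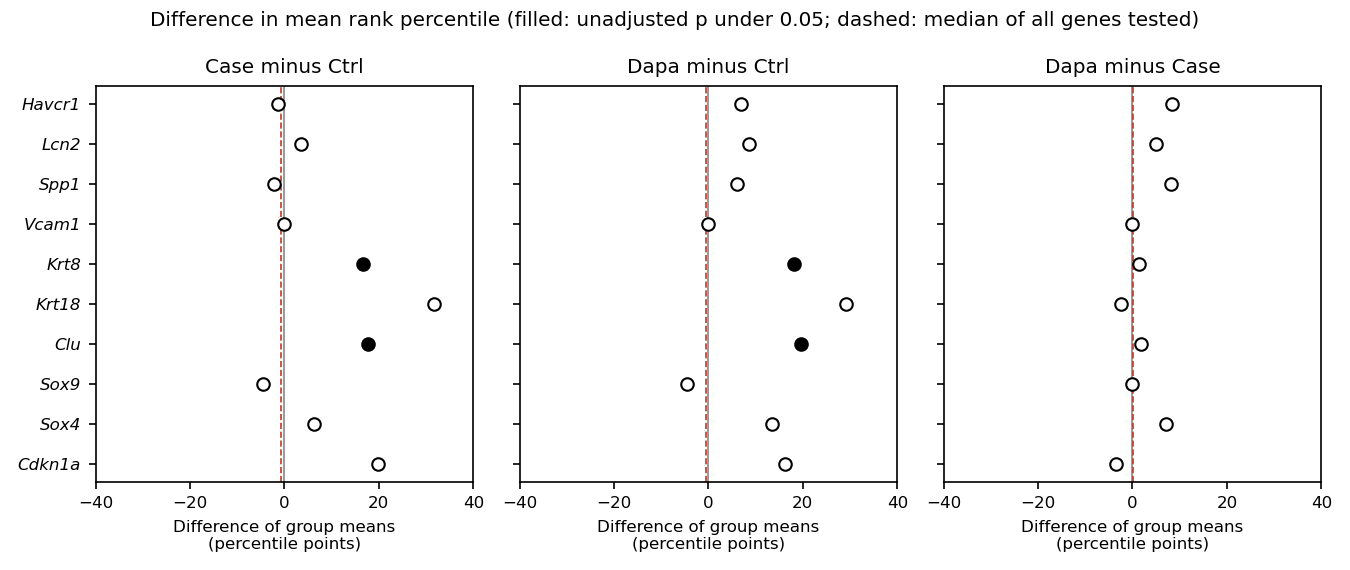
Difference in mean rank percentile between groups for each of the 10 genes, in percentile points. Filled points had an unadjusted exact permutation p under 0.05 (Krt8 and Clu against Ctrl), and the dashed line is the median over all genes tested, near 0 in each panel. The differences of Krt18 (31.6 for Case minus Ctrl) rest on the edge of the 10 kb window, as described with that gene.

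The mean rank of Krt8 was higher in both db/db groups than in Ctrl, short of the adjusted threshold. Its best summit lay at percentiles 74.7, 54.8, 55.3, 78.5 and 67 in Ctrl mice 1 to 5. In Case mice the lowest, median and highest values were 67.2, 85.3 and 92.4, and in Dapa mice 69.6, 87.3 and 93.9. The groups overlapped, but 4 of 6 Case and 4 of 6 Dapa mice exceeded every Ctrl mouse. The Case minus Ctrl difference was 16.7 points (82.7 ± 9.23 against 66 ± 10.9, SD, exact permutation p = 0.0281, adjusted p = 0.33). Dapa minus Ctrl was 18.1 points (exact permutation p = 0.0173, adjusted p = 0.29), and db/db minus Ctrl was 17.4 points (exact permutation p = 0.00339, adjusted p = 0.149). The Case difference lost its unadjusted p under 0.05 without Case 1, 2 or 6 or without Ctrl 2 or 3 (13.8 to 19.8 points over all 11 mice left out in turn). Without Case 3 it was 19.8 points (exact permutation p = 0.0159, adjusted p = 0.28). Ranked within complete lists, the Case difference was 6.98 points (exact permutation p = 0.208), the Dapa difference 9.97 (exact permutation p = 0.0476) and the db/db difference 8.47 points (exact permutation p = 0.0722). With summits counted only within 1 kb of the start, the Case difference was 20.4 points (exact permutation p = 0.275) and the Dapa difference 26.9 (exact permutation p = 0.18).

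The Krt8 value came from a pair of sites. The site 1345 bp downstream of the start, in an intron and 1075 bp from a start of the overlapping gene Gm36026 (chr15:102002805-102003553), had a summit in all 17 mice, and its percentile averaged 63.6 ± 12 in Ctrl, compared with 78.4 ± 11.6 in Case and 75.5 ± 12.7 in Dapa mice. The promoter site, 94 bp downstream of the start in the 5′ untranslated region (chr15:102004089-102004683), was found in 4 Ctrl, 5 Case and 5 Dapa mice. Counting absence as 0, its percentile was 39.6 ± 28 for Ctrl, 60 ± 31.1 for Case and 66.6 ± 33.4 for Dapa mice, with a mouse at 0 in every group, and neither Case minus Ctrl (exact permutation p = 0.275) nor Dapa minus Ctrl (exact permutation p = 0.18) passed the unadjusted threshold. A further site, 9298 bp upstream, appeared in 1 Ctrl and 2 Case mice and in 0 Dapa mice. Rank was also tested site by site across all regions, a test added after the data had been seen because the sites of Krt8, Krt18 and Clu were present in every library. In it the intron site gave 14.9 points for Case minus Ctrl (exact permutation p = 0.0736) and 13.4 for db/db minus Ctrl (exact permutation p = 0.0519).

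Krt18 itself had no accessible promoter in these lists. The gene starts 23698 bp from Krt8 on the opposite strand, and the genes point away from each other. The sole site with a summit in its window lay between the genes, 10032 bp upstream of Krt18 and 13666 bp from the start of Krt8 (chr15:102017840-102018454). It had a summit in all 17 libraries, but only 4 of these fell inside the 10 kb window, in Case 2, Case 6, Dapa 11 and Dapa 12, so the presence of Krt18 in 4 mice was set by the edge of the window. The site itself was counted because regions, which reach 250 bp to each side of a summit, had only to overlap the window, and this held for the summit of every library, 5 Ctrl, 6 Case and 6 Dapa. The site ranked high in every group, at percentiles 81.9, 74.3, 81.9, 74.7 and 86.9 in Ctrl mice. Case mice had a lowest, median and highest value of 86.1, 94.3 and 95.7, and Dapa mice 77.7, 87.9 and 97.1. In Case, 5 of 6 mice exceeded every Ctrl mouse, and in Dapa 3 of 6 did. The Case minus Ctrl difference was 13.2 points (exact permutation p = 0.00649, adjusted p = 0.287), Dapa minus Ctrl was 7.68 (exact permutation p = 0.0758) and db/db minus Ctrl was 10.4 (exact permutation p = 0.00485, adjusted p = 0.174). Dapa minus Case was -5.51 points (exact permutation p = 0.108). The Case difference stayed between 11.8 and 14.9 points with each mouse left out (p 0.00476 to 0.0159, exact permutation), and was 7.05 in complete lists (exact permutation p = 0.0173). The db/db difference in complete lists was 5.61 points (exact permutation p = 0.0196).

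Clu, the chaperone, was open at its promoter in every kidney. The site lay 74 bp downstream of the start, in the 5′ untranslated region (chr14:65968253-65968887), and ranked at 53.9, 69.9, 57.6, 62.9 and 78.9 in Ctrl mice. The lowest, median and highest values were 55.1, 86.1 and 94.6 in Case and 69.9, 84.7 and 94.1 in Dapa. The Case group overlapped Ctrl only through Case 3 at 55.1, and the other 5 Case mice and 4 of 6 Dapa mice exceeded every Ctrl mouse. Case minus Ctrl was 17.8 points (82.4 ± 14.2 against 64.6 ± 9.99, exact permutation p = 0.0476, adjusted p = 0.409). Without Case 3 it was 23.3 points (exact permutation p = 0.00794), whereas without any one of the other Case mice or of Ctrl 1 to 4 the unadjusted p was over 0.05, up to 0.11 (exact permutation). Dapa minus Ctrl was 19.6 points (84.3 ± 9.82, exact permutation p = 0.0173, adjusted p = 0.29) and db/db minus Ctrl 18.7 (exact permutation p = 0.00695, adjusted p = 0.206). In complete lists the Case difference was 7.56 points (exact permutation p = 0.338), the Dapa difference 12 (exact permutation p = 0.026) and the db/db difference 9.79 (exact permutation p = 0.0947). Another site, 2119 bp downstream and 18 bp from an alternative start of Clu, had a summit in 2 Ctrl mice, at 21.5 and 40.7, and in 0 of 12 db/db mice, whereas the complete list of Case 5 held one there.

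**Figure D3:**
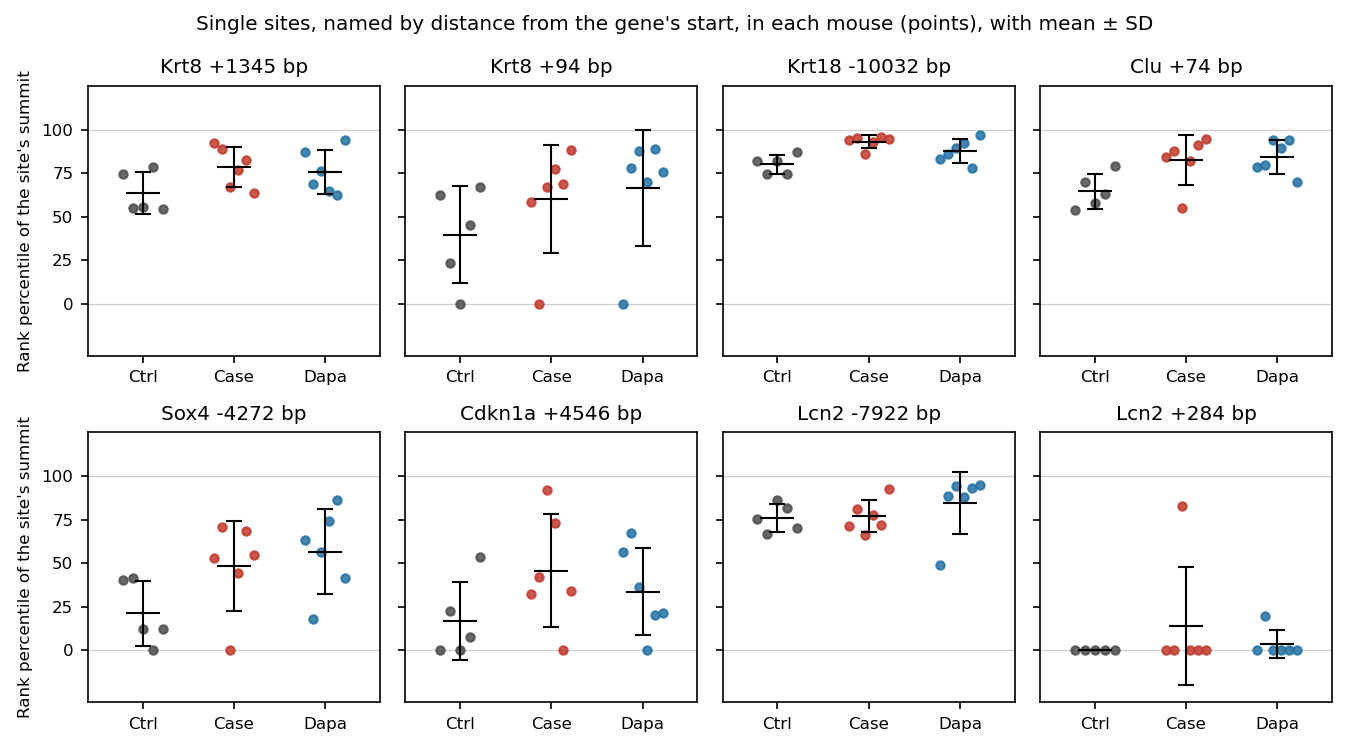
Rank percentile of single sites, named by distance from the start of the gene, in each mouse (points) with mean and SD by group. The Krt18 site lies at 74.3 to 97.1 in all 17 mice, the Clu and Krt8 +1345 sites at 53.9 or above, and the Lcn2 +284 site at 0 in all but 2 mice.

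Sox4 was reached through upstream sites more often than through its promoter. Every mouse but Case 3 had a summit in its window. The best percentile was 40.1, 46.6, 38.2, 67.6 and 45.1 in Ctrl mice, with a median of 64.6 in Case (0 to 70.9) and 59.7 in Dapa (41.3 to 86.5). Case minus Ctrl was 6.31 points with all mice (exact permutation p = 0.695) and 17.1 without Case 3 (64.6 ± 6.53 against 47.5 ± 11.7, exact permutation p = 0.0317, adjusted p = 0.353). db/db minus Ctrl was 9.88 points (exact permutation p = 0.372) and 15.1 without Case 3 (exact permutation p = 0.0467, adjusted p = 0.378). In complete lists with all mice, Case minus Ctrl turned to -5.16 points (exact permutation p = 0.929) and db/db minus Ctrl was 0.303 (exact permutation p = 0.98). The promoter site, 54 bp upstream, had a summit in 3 mice of each group.

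The upstream region 4272 bp from the start of Sox4 (chr13:28957671-28959076) had a summit in 4 Ctrl, 5 Case and 6 Dapa mice, at 21.2 ± 18.7, 48.5 ± 25.8 and 56.6 ± 24.4. Case 3 was at 0 and the other Case mice at 44.3 to 70.9, beside 0 to 41.7 in Ctrl mice. With all mice, Case against Ctrl did not reach an unadjusted p under 0.05 at this site. Dapa minus Ctrl was 35.4 points (exact permutation p = 0.0303, adjusted p = 0.413) and db/db minus Ctrl 31.4 (exact permutation p = 0.0215, adjusted p = 0.312), in the site test added after the data had been seen. The former lost its unadjusted p under 0.05 without Dapa 10 or 11 or Ctrl 3, 4 or 5, and in complete lists it was 23.1 points (exact permutation p = 0.0628). The latter was 26.1 points without Ctrl 4 (exact permutation p = 0.0659) and 16.6 in complete lists (exact permutation p = 0.191). With summits extended by only 100 bp the region split. Its nearer stretch, from -4417 to -4108 bp of the start, was found in 2 Ctrl mice, at no more than 13, and in 4 Case and 5 Dapa mice, at up to 70.9 and 86.5. The stretch from -5213 to -4716 bp was found in 2 Ctrl, 4 Case and 3 Dapa mice, at 16.4 ± 22.4, 31.2 ± 26 and 18.9 ± 24. The small stretch between them, from -4688 to -4483 bp, was found in 1 Ctrl, 1 Case and 0 Dapa mice. By presence these stretches had unadjusted p of 0.242 or more where they could be tested (Fisher's exact test). A further region 5985 bp upstream had a summit in 3 Ctrl, 3 Case and 4 Dapa mice and a mean of 30.5 in Ctrl, 22.7 in Case and 9.94 in Dapa.

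By rank, 16 of the 18 member regions could be tested in Case against Ctrl and in Dapa against Case, 15 in Dapa against Ctrl and 18 in db/db against Ctrl. Of these, 2 were higher at an unadjusted p under 0.05 in Case than in Ctrl (Krt18 upstream, Clu promoter). For Dapa against Ctrl 2 were higher (Clu promoter, Sox4 upstream) and for db/db against Ctrl 3, with 0 lower and 0 in Dapa against Case. The Clu promoter site gave the same values and tests as the Clu window, so its place in these counts is not further evidence. Without the Krt18 site, whose median summit lay outside the 10 kb window, the counts were 1 of 15 (Case), 2 of 14 (Dapa) and 2 of 17 (db/db), a choice made after the data had been seen. The background was 2.43% of regions higher and 7.55% lower in Case than in Ctrl, 3.16% and 6.64% in Dapa than in Ctrl, 2.22% and 8.26% in db/db than in Ctrl, and 1.6% and 0.901% in Dapa than in Case. Adjusted calls were 0% of regions except in db/db against Ctrl, where they were 0.349%, none in a member. By presence, only 3, 3, 4 and 10 member regions could be tested, and 0 had an unadjusted p under 0.05 (Fisher's exact test), against 10.2%, 1.17%, 8.04% and 9.31% of regions tested for Case against Ctrl, Dapa against Case, Dapa against Ctrl and db/db against Ctrl.

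**Figure D4:**
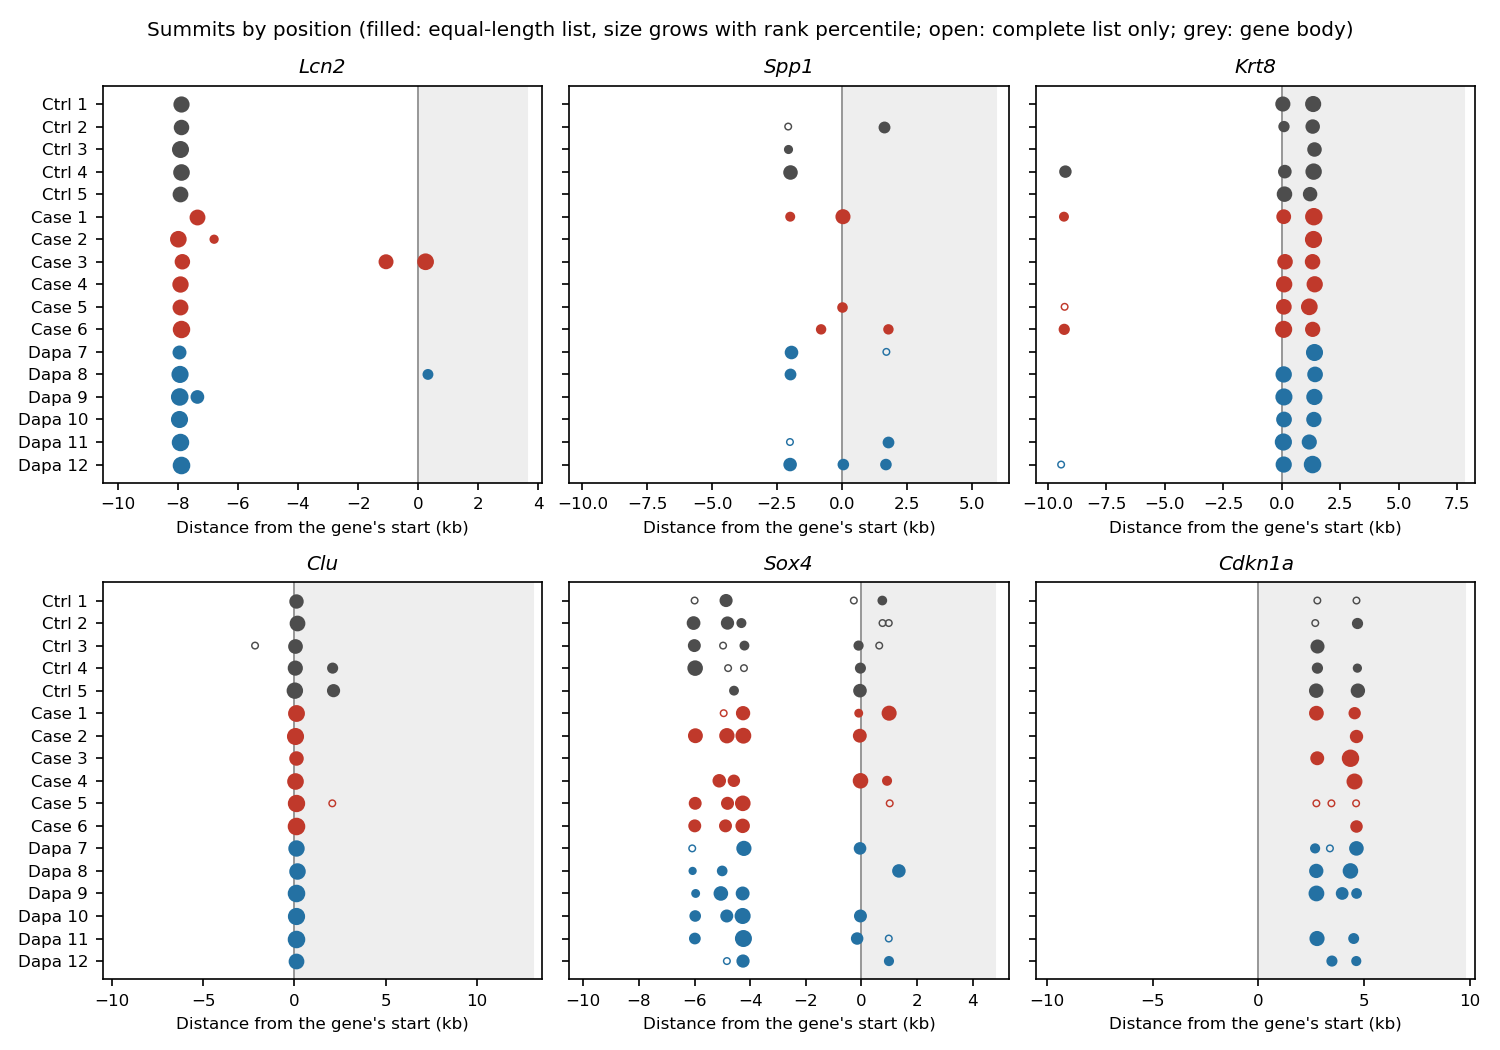
Summits of each mouse (rows) by distance from the start of the gene in kb, for 6 genes. Filled points belong to the equal-length list and grow with rank percentile, open points to the complete list only, and grey marks the gene body. The Clu promoter and the Krt8 intron site recur in all 17 mice, and Lcn2 has summits at its own start in 2 mice only.

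Cdkn1a was accessible inside the gene and not at its first annotated start. No region lay there, and the nearest to any of its starts was 2740 bp downstream, 53 bp from an alternative start (chr17:29093403-29094012), with a summit in 3 Ctrl, 2 Case and 4 Dapa mice. The intron site with the AP-1 match, 4546 bp downstream and 1061 bp from a start of the overlapping gene AC167363.2 (chr17:29094198-29095924), had a summit in 3 Ctrl, 5 Case and 5 Dapa mice, at 16.8 ± 22.6, 45.6 ± 32.6 and 33.6 ± 24.9. The best percentile over the window was 0, 22.5, 50.2, 22.7 and 55 in Ctrl mice, with medians of 50.1 in Case (0 to 92.2) and 59.5 in Dapa (0 to 70.4). Case minus Ctrl was 19.8 points (exact permutation p = 0.275) and Dapa minus Case -3.51 (exact permutation p = 0.84), less than the SD within any group. The highest value, 92.2, was that of Case 3, and without it Case minus Ctrl was 11.3 points (exact permutation p = 0.492) and Dapa minus Case turned to 4.96 (exact permutation p = 0.766). In complete lists Case minus Ctrl was 8.34 points (exact permutation p = 0.472), and within 1 kb of a start it turned to -7.84 (exact permutation p = 0.675).

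In every mouse but Case 3, the highest summit of the Lcn2 window lay closer to another gene. The site found in all 17 mice (chr2:32395351-32396485) lay 7922 bp upstream of Lcn2 but 266 bp from a start of Ptges2, a neighbouring prostaglandin synthase gene. The best percentile of the Lcn2 window averaged 76.1 ± 8.01 in Ctrl, with 79.6 ± 7.9 in Case and 84.6 ± 17.7 in Dapa mice. The Ctrl values were 75.6, 66.8, 86.5, 81.4 and 70.2, within the Case range of 71.5 to 92.7 or just below it. Dapa 7 lay at 49 and the other 5 Dapa mice at 87.8 to 94.9. Dapa minus Ctrl was 8.51 points (exact permutation p = 0.361) and 15.6 without Dapa 7 (exact permutation p = 0.00794, adjusted p = 0.249). Case minus Ctrl was 3.48 points (exact permutation p = 0.47), turning to -0.651 in complete lists (exact permutation p = 0.846). Dapa minus Case was 5.02 points (exact permutation p = 0.571) and 12.1 without Dapa 7 (exact permutation p = 0.0173, adjusted p = 1). Dapa 7 was left out for its own Lcn2 value, so the p-values without it were selected by the outcome. With each mouse left out, Dapa minus Ctrl ran from 6.2 to 15.6 points and Dapa minus Case from 2.97 to 12.1. Only the omission of Dapa 7 gave an unadjusted p under 0.05.

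At the start of Lcn2 itself, a summit appeared in 2 of 17 mice (chr2:32387679-32388258, 284 bp downstream, in a coding exon). It ranked at 82.6 in Case 3 and 19.7 in Dapa 8. Case 3 also had a summit at -1072 bp from the start of Lcn2, at percentile 60.3. These were the libraries with the most leukocyte markers of their groups, 4 in Case 3 and 2 in Dapa 8, and the only ones with a summit at Cd68. Case 3 also had the highest Cdkn1a value and the lowest Clu and Krt8 values of the Case group and lacked Sox4. The part of these cells in the Lcn2, Cdkn1a, Clu, Krt8 and Sox4 values was not tested.

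Spp1 was open in part of the kidneys of each group (3 Ctrl, 3 Case and 4 Dapa mice), at a low rank. Its percentile was 0, 28.3, 6.79, 55.5 and 0 in Ctrl, with a median of 7.99 in Case (0 to 61.7) and 27.4 in Dapa (0 to 45.1). The promoter site, 43 bp downstream of the start (chr5:104434877-104435425), had a summit in 0 Ctrl, 2 Case and 1 Dapa mice. The site 1992 bp upstream, which holds AP-1 and STAT letters, had one in 2 Ctrl, 1 Case and 3 Dapa mice, and the intron site 1731 bp downstream in 1, 1 and 2. Differences between groups ran from -2.28 points (Case minus Ctrl) to 8.25 (Dapa minus Case), below the within-group SD of 20.2 to 23.9, and the former turned to 10.2 with windows from 2 kb upstream (exact permutation p = 0.5). Dapa minus Case was 17.4 points without Case 1 (exact permutation p = 0.134) and 4.04 without Dapa 7 (exact permutation p = 0.773).

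The remaining markers were mostly closed. Havcr1 had a summit in 1 Ctrl mouse (6.79), 0 Case mice and 2 Dapa mice (5.65 and 44.5), and in complete lists in 1, 1 and 4 mice. Its region in the equal-length lists lay 1538 bp upstream of the start (chr11:46733277-46733807) and was found in 2 mice, Ctrl 3 and Dapa 12. Sox9 had a summit in 2 Ctrl mice, at 18.3 and 4.58, and in 0 of 12 db/db mice, with 1 Case mouse added in complete lists. Vcam1 had none in any of the 17 complete lists. A summit list gives no reads, so absence means that no peak was called at the depth of that library, which is not known.

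The other genes of the injury and repair programme, 61 listed and all 61 found, also ranged from always to never accessible. A summit lay in the window in all 17 mice for 27 of them and in 0 mice for 4. By percentile, 0 were higher and 5 lower at an unadjusted p under 0.05 in Case than in Ctrl (51 tested), 2 higher and 3 lower in Dapa than in Ctrl (50 tested), 3 higher and 0 lower in Dapa than in Case (53 tested), and 0 higher and 3 lower in db/db than in Ctrl (54 tested). None passed the adjusted threshold. Over all genes the shares were 4.08% higher and 7.88% lower, 4.8% and 7.63%, 2% and 1.48%, and 4.17% and 8.07% in these 4 comparisons, so the shares of lower genes against Ctrl were close to those over all genes. The 5 genes named, by the smallest p, were Ccn2, Foxm1, Cdkn2b, Prom1 and Mki67.

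Ccn2, a matrix-associated target of YAP and TEAD, had the largest difference of these 5. Its percentile averaged 73 ± 9.38 in Ctrl (63.6 to 87.8), compared with 22.2 ± 27.4 in Case (0 to 66.1) and 22.2 ± 20.4 in Dapa (0 to 48.8). The db/db minus Ctrl difference was -50.8 points (exact permutation p = 0.000323, adjusted p = 0.0798), between -54.8 and -47.2 with each mouse left out. Cdkn2b, an inhibitor of the cell cycle like Cdkn1a, was open in 4 Ctrl, 0 Case and 2 Dapa mice, with a db/db minus Ctrl difference of -20.6 points (exact permutation p = 0.00986, adjusted p = 0.234). The mean rank of Prom1, a membrane protein, was at 58.7 ± 9.86 in Ctrl, 25 ± 30.9 in Case and 30.8 ± 18.5 in Dapa. Its db/db minus Ctrl difference was -30.8 points (exact permutation p = 0.0184, adjusted p = 0.277), but -6.97 with a window from 2 kb upstream (exact permutation p = 0.555).

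Foxm1 and Mki67 had a higher mean rank in Dapa than in Case mice, short of the adjusted threshold. Top2a, Ccnd1 and Myc, further genes of dividing cells on the list, had a summit in all 17 mice and an unadjusted p over 0.05 in this comparison. Foxm1, a transcription factor of dividing cells, was at 90 ± 4.21 in Ctrl, 66.9 ± 25.8 in Case (16 to 84.5) and 87.8 ± 3.47 in Dapa (80.9 to 90.5). Case minus Ctrl was -23.1 points (exact permutation p = 0.0173, adjusted p = 0.291). The p was 0.0801 with a window from 2 kb upstream and 0.0524 to 0.0667 without Ctrl 1, 4 or 5 (exact permutation). Dapa minus Case was 20.9 points (exact permutation p = 0.00649, adjusted p = 1), and 9.38 with a window from 2 kb upstream (exact permutation p = 0.541). Without Case 6, the lowest mouse, it was 10.7 points (exact permutation p = 0.00866). Mki67, which marks dividing cells, was at 64.1 ± 21.7 in Ctrl, 37.6 ± 29.7 in Case (0 to 73.5) and 71.3 ± 9.13 in Dapa (59 to 86.2), a Dapa minus Case difference of 33.7 points (exact permutation p = 0.0195, adjusted p = 1). Without Dapa 10 it was 30.7 points (exact permutation p = 0.0584).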

How the data were processed

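ATAC-seq was performed on kidneys of 17 mice. Per the study's methods, the authors ran the ENCODE ATAC-seq pipeline: reads were aligned to mm10 with Bowtie2, PCR duplicates and blacklisted regions were removed, ends were shifted for the transposase, and MACS2 called peaks in each library. Versions are not given in the sources used here. The deposited files list each summit with its position and a MACS2 score, a −log10 p-value or q-value (which is not stated), used here only to rank summits within a library. Because a −log10 score grows with depth and depth is unknown, lists were cut to the same length of 29702, and the limit of a missing summit cannot be given as a count.

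Summits on 21 chromosomes were assigned to 55413 GENCODE genes and merged into 52423 regions. Tests were Fisher's exact test and the exact permutation test, both 2-sided, and p-values were adjusted by Benjamini and Hochberg's method over the features that could reach p under 0.05 (presence) or had summits in enough libraries (rank). The code of both tests was tested on simulated data. The smallest p was 0.00216 for 6 against 5 mice and 0.000162 for 12 against 5. Python 3.11.15, numpy 2.4.6, pandas 2.3.3 and scipy 1.17.1 were used. Replicates are separate mice. Of 136 library pairs, 0 were identical. The members, gene lists and tests were chosen with earlier results of these data known. All 10 members were named, a site or gene was given with its test where its unadjusted p was under 0.05, and other injury genes by the smallest p, at most 6, of which 5 are given because a tie fell at the next. Alternatives changed the list length, score minimum, window, extension of summits, number of libraries and mice left out, and added a replicate block. Motifs were searched in 300 bp around each median summit.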

Additional observations from a re-analysis of the deposited data

Results flagged for a closer look

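The percentiles of the 10 genes and the number of members with a summit were checked in each group. In 8 of the 26 sets of mice with a range, the highest or lowest mouse lay farther from its group than Dixon's criterion allows, and 7 further sets had no range to check. Chance gives such a mouse in about 1 in 20 sets, and windows with mostly absent summits meet the criterion easily. Havcr1 was at percentile 6.79 in Ctrl 3, where the other Ctrl mice were at 0, and at 44.5 in Dapa 12, where the others were at 0 to 5.65. Lcn2 was at 49 in Dapa 7, against 87.8 to 94.9 in the other Dapa mice. Spp1 was at 61.7 in Case 1, against 0 to 17.3. Sox9 was at 18.3 in Ctrl 1, against 0 to 4.58. Sox4 was at 67.6 in Ctrl 4, against 38.2 to 46.6. Case 3 gave Clu at 55.1 (the other Case mice at 81.7 to 94.6) and Sox4 at 0 (the others at 54.6 to 70.9). Case 3 also had the fewest epithelial and the most leukocyte markers. The part of cell content or of library quality in its Clu and Sox4 values was not tested.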

How the results depend on the processing

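No difference with an unadjusted p under 0.05 reversed, and 247 recounts of genes and regions past the adjusted threshold gave 0 calls each, leaving aside regions by rank in db/db against Ctrl. Differences over 0.05 did reverse. In complete lists Case minus Ctrl was -0.651 for Lcn2 and -5.16 for Sox4, and db/db minus Ctrl was -2.29 for Spp1. With windows from 2 kb upstream, Dapa minus Case was -10.5 for Lcn2 and -1.96 for Sox4, and Case minus Ctrl was 10.2 for Spp1. Within 1 kb of a start, Dapa minus Case was -10.5 for Lcn2, -7.04 for Spp1, -9.35 for Sox4 and 19.2 for Cdkn1a, and Case minus Ctrl was 10.2 for Spp1 and -7.84 for Cdkn1a. With each mouse left out, Dapa minus Case ran from -1.69 to 4.3 for Krt8, -3.63 to 4.73 for Clu, -3.64 to 11.1 for Sox4 and -13.5 to 5.77 for Cdkn1a. For Spp1, Case minus Ctrl ran from -11.5 to 7.07 and db/db minus Ctrl from -2.68 to 11.2. The median difference of the members for Case minus Ctrl turned from 4.9 to -0.325 in complete lists (-0.651 without Krt18), and with each mouse left out it ran from 3.02 (without Case 2) to 9.2 (without Ctrl 4), for Dapa minus Case from 0 (without Case 3) to 5.77 (without Case 6) and for Dapa minus Ctrl from 8.5 to 14.9. The mean number of members with a summit fell to 3.8 in Ctrl, 4.83 in Case and 4.5 in Dapa with lists of 14851, to 4.2 (Ctrl), 4 (Case) and 4.83 (Dapa) with windows from 2 kb upstream, and to 3.6, 3.33 and 3.83 within 1 kb of a start. Members at an unadjusted p under 0.05 by rank, 2 in each comparison with Ctrl, numbered 0 for Case and for db/db against Ctrl in complete lists, and 1 in Case, Dapa or db/db against Ctrl within 1 kb of a start. Leaving out each mouse gave 0 to 3 members for Case against Ctrl, 0 to 1 for Dapa against Case, and 2 to 3 for Dapa and for db/db against Ctrl. The members' sites by rank numbered 1 in complete lists in each comparison with Ctrl, and 1 in Case against Ctrl without the Krt18 site. With each mouse left out they numbered 1 to 3 (Case against Ctrl), 0 to 1 (Dapa against Case), 1 to 4 (Dapa against Ctrl) and 3 to 4 (db/db against Ctrl). The 182 regions of the genome past the adjusted threshold in db/db against Ctrl numbered 205 in complete lists and fell to 0 without any one mouse, where fewer mice also raise the smallest p. Ctrl and Case mice share only numbers: the correlations of their deviations were -0.0499 to 0.0436, and 1 of 5 Case mice correlated best with its own number. The replicate block left 0 members at an unadjusted p under 0.05, which its smallest p of 0.0625 (exact) does not allow. The causes were not tested. The depth of the libraries is unknown, so an absent summit is a limit of detection of unknown size.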
